A study of Mus musculus with 12 samples.

Results

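Heat shock chaperones are proteins that hold, refold or hand on other proteins, and several of their genes are induced when proteins are damaged. The genes described here are Hspa1a, Hspa1b, Hspa8, Hspa4 and Hsph1 of the HSP70 system, Hsp90aa1 and Hsp90ab1 of the HSP90 family, the mitochondrial chaperonin genes Hspd1 and Hspe1, and the small heat shock protein gene Hspb8. Every probe set that the platform annotation assigns to 1 of these 10 genes alone was taken, which gave 16 of the 12488 probe sets on the array, for 9 of the 8251 genes named by a probe set of their own. No probe set was assigned in this way to Hsp90ab1, and it is not analysed here. The cells were mouse embryonic stem cells of clone C2, a derivative of E14tg2a that carries targeted recognition sites for the endonuclease I-SceI, so all groups share this genotype and come from 1 clone. Control cells were kept in phosphate-buffered saline (PBS, n = 3). Treated cells were given hydrogen peroxide (H2O2) in PBS, either 100 µM for 15 min (low dose, n = 4) or 5 mM for 30 min (high dose, n = 5), and were returned to maintenance medium for 1 h before RNA was taken. The doses differ in both concentration and exposure, and the time the controls spent in PBS is not given in the sources used here. A return to medium for 1 h is recorded for the treated arrays and not for the control arrays. The part of that step in any difference from the controls was not tested, so such a difference cannot be assigned to peroxide alone. Nothing in the labels says that replicates were separate cultures, so each p-value reflects the spread among these arrays alone, part or all of which may be technical.

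Transcription of many of these genes is driven by heat shock factor 1, which trimerises after proteotoxic stress and binds heat shock elements, runs of the units GAA and TTC in turn. HSPA1A and HSPA1B are the stress-inducible HSP70 proteins, HSPA8 is the constitutive one, and HSPA4 and HSPH1 are nucleotide exchange factors of the HSP110 class that speed the HSP70 cycle. HSP90AA1 is the inducible cytosolic HSP90. HSPD1 and HSPE1 form the folding chamber of the mitochondrial matrix and its lid, and HSPB8 works with the co-chaperone BAG3 in the autophagic removal of misfolded proteins.

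The upstream sequences of the inducible HSP70 pair are shown because Hspa1a had the largest change of the chaperone genes and the promoters of the pair are nearly the same. In the table of RefSeq promoters used here (GRCm38.p6), matched for 7 of the 9 genes and not for Hspa8 or Hsp90aa1, the 250 bases before the annotated start lie at chr17:34972157-34972406 for Hspa1a and at chr17:34959239-34959488 for Hspa1b, both on the minus strand. Capitals mark the core of 2 heat shock element units.
Hspa1a: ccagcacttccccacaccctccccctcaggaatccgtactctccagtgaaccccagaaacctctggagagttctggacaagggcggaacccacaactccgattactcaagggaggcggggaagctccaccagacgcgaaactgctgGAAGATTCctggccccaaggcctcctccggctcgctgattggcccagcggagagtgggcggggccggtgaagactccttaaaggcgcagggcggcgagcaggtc
Hspa1b: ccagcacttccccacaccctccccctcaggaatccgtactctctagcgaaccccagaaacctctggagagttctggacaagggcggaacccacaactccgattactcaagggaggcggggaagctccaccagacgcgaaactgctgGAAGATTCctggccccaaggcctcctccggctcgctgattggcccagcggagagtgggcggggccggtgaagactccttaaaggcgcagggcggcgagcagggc
They share 247 of 250 bases. Counted from 1 at the first base printed, the differences from Hspa1a to Hspa1b are C44T, T47C and T249G, all outside the core.

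Cores in the other promoters are shown as 30-base windows, again with the units in capitals, to compare how many units follow each other. The windows are at chr1:55088053-55088082 (plus strand) for Hspe1, at chr5:149636351-149636380 (minus strand) for Hsph1 and at chr5:116422844-116422873 (minus strand) for Hspb8.
Hspe1: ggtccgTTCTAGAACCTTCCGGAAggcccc
Hsph1: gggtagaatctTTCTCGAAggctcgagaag
Hspb8: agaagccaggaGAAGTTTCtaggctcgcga
Hspe1 and Hspd1 are read in opposite directions from starts 216 bases apart, and the Hspe1 window, with an unbroken run of units from base -89 to base -72 before its start, lies between them. Hspd1 has another annotated start, past that of Hspe1, with no match before it. Searched on both strands over the 250 bases before each annotated start, GAANNTTC or TTCNNGAA occurred in 12.8% of the 32851 promoters in the table, and the longer forms GAANNTTCNNGAA or TTCNNGAANNTTC, which contain the short ones, in 0.466%. A short match was found before a start of 5 of the 7 genes, namely Hspa1a, Hspa1b, Hsph1, Hspd1 and Hspe1, and a long match for Hspd1 and Hspe1 only. No match was found in this window for Hspa4 or Hspb8; the Hspb8 match shown starts at base 3 after its start, and 2.29% of the promoters have a match wholly within the first 50 bases after the start. CCAAT, in 33.8% of promoters, was found for Hspa1a, Hspa1b and Hsph1, and TATAAA, in 12.4%, for none of the 7. A match is a string of letters and was not measured as a binding site here.

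The values are MAS5 signals, linear intensities that the deposited table gives for each probe set and array, and a level of one probe set cannot be compared with that of another. Fold changes and standard errors (SE) come from a linear model on log2(signal + 10.1), fitted with limma to all 12 arrays, with p-values adjusted by the Benjamini-Hochberg method over 8695 tested probe sets and a threshold of 0.05. The offset understates changes of dim probe sets. Of the 16 chaperone probe sets 14 were tested, and the others, the dimmer ones of Hsp90aa1 and Hspb8, fell below the filter on low values. Precision is limited by how many arrays each group has. Whether groups overlap is described for single probe sets, and the share over all probe sets is not given here.

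The cells carried stem cell markers in every group: the lowest signal on any array was 3291 for Pou5f1, 2746 for Sox2 and 3284 for Nanog. All 15 on a list of embryonic stem cell markers had a probe set. Their summed signal was 30573 to 33590 on control arrays, 38747 to 44567 on low-dose arrays and 35739 to 41039 at the high dose. Of 22 tested markers of primitive endoderm, an early extraembryonic lineage, 17 were lower after the high dose than in the controls and none higher, 7 were higher and 2 lower after the low dose, and 18 were lower and none higher at the high than at the low dose. Of the 15 stem cell markers 6 were higher and 2 lower after the low dose, and 3 were higher and 1 lower after the high dose. The summed signal of the 23 measured primitive endoderm markers was 9062 to 14161 on the control arrays, 12779 to 14202 on low-dose arrays and 2263 to 2461 at the high dose. Gata6, a defining factor, read 141 to 211, 526 to 745 and 8.61 to 35.1 in the same order. Sox17, on the same list, did not share the low-dose rise, at 228 to 261, 213 to 276 and 19.6 to 55.8. Of the 12 tested fibroblast markers, which would mark feeder cells, none passed between the high dose and the controls in limma, with 3 at an unadjusted p under 0.05. After the low dose 2 were higher and 1 lower, and between the doses 1 was higher and 3 lower at the high dose. Of all 6414 genes, 5.36% were higher and 6.84% lower after the high dose, 11.9% and 12.7% after the low dose, and 13.8% and 15.2% between the doses. The summed signal of the 19 measured fibroblast markers was 1629 to 1913, 2044 to 2453 and 1616 to 2176 in the same order of groups. In these bulk samples fewer cells of a type and less RNA per cell cannot be told apart, and the part of this shift in the results that follow was not tested. The bright end of the scale also differed: the brightest probe set read 7206 to 8904 on control arrays, 14976 to 24225 on low-dose arrays and 19733 to 34685 at the high dose.

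Hspa1a, one of the stress-inducible HSP70 genes, rose most of all the chaperone genes after the high dose. Its signal was 73.0, 61.4 and 64.5 on the 3 control arrays, 139.3, 90.4, 89.1 and 139.0 on the 4 low-dose arrays, and 568, 370, 950, 611 and 763 on the 5 high-dose arrays. Every high-dose array was above every low-dose array, and every low-dose array was above every control. Against the controls the high dose gave a log2 change of 3.05 ± 0.24 (SE), 8.30-fold (limma adjusted p = 5.3e-07), and against the low dose 2.37 ± 0.22, 5.18-fold (limma adjusted p = 1.5e-06). The low dose differed from the controls by 0.68 ± 0.25, with a 95% interval from 0.14 to 1.22, and did not pass (limma adjusted p = 0.0630). The limma adjusted p was 0.0268 without high-dose replicate 2, 0.0456 without high-dose replicate 3 and 0.0347 with array quality weights. It was 0.127 after quantile normalization and 0.166 after median scaling. Leaving out a high-dose array did not change the low-dose log2 value itself.

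Hspa1b, its neighbour on chromosome 17, followed the same order with a smaller span. It read 114, 127 and 117 in the controls, 214, 170, 180 and 191 on the low-dose arrays, and 238, 246, 550, 358 and 383 at the high dose. The groups again did not overlap. The high dose was 2.69-fold above the controls, a log2 change of 1.43 ± 0.22 (limma adjusted p = 4.5e-04), and 1.76-fold above the low dose, a log2 change of 0.81 ± 0.20 (limma adjusted p = 0.00609). The low dose gave 0.62 ± 0.23 (95% interval 0.13 to 1.10), which did not pass (limma adjusted p = 0.0589). The adjusted p was 0.0460, 0.0461 and 0.0251 with high-dose replicate 1, 2 or 3 removed, and 0.0230 in a fit of the control and low-dose arrays alone. These fits left the low-dose log2 value itself unchanged. The limma adjusted p was 0.0909 after quantile normalization and 0.182 after median scaling. The coding sequences of the pair are almost the same, so each probe set may read RNA of both genes, and how the rise divides between them is uncertain.

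Hspa8, the constitutive HSP70 gene, showed no such step. It read 5520, 4324 and 4314 in the controls, 6220, 6692, 6406 and 5223 on the low-dose arrays, and 6356, 5355, 5011, 4871 and 5154 at the high dose, and all groups overlapped. The log2 value was 0.18 at the high dose (95% interval -0.10 to 0.47, limma adjusted p = 0.409) and 0.38 at the low dose (0.09 to 0.68, limma adjusted p = 0.0565). Its sign depended on the scaling: after quantile normalization the high-dose value was -0.42 with an adjusted p of 0.0362, so no direction can be given for Hspa8 at the high dose. At the low dose the value was below 0 in 1 alternative, quantile normalization (-0.0702). It passed as higher with array quality weights (adjusted p = 0.0132), the filter at the 50th percentile (0.0471), the replicate block (0.0403), without control replicate 1 (0.0266), low-dose replicate 4 (0.0327) or high-dose replicate 1 (0.0487), and without high-dose replicates 1 and 2 together (0.0451). After median scaling the low-dose value had a limma adjusted p of 0.489. Between the doses the value was -0.20 (limma adjusted p = 0.252), and it passed after quantile normalization (-0.35) and cyclic loess (-0.42).

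**Figure D1:**
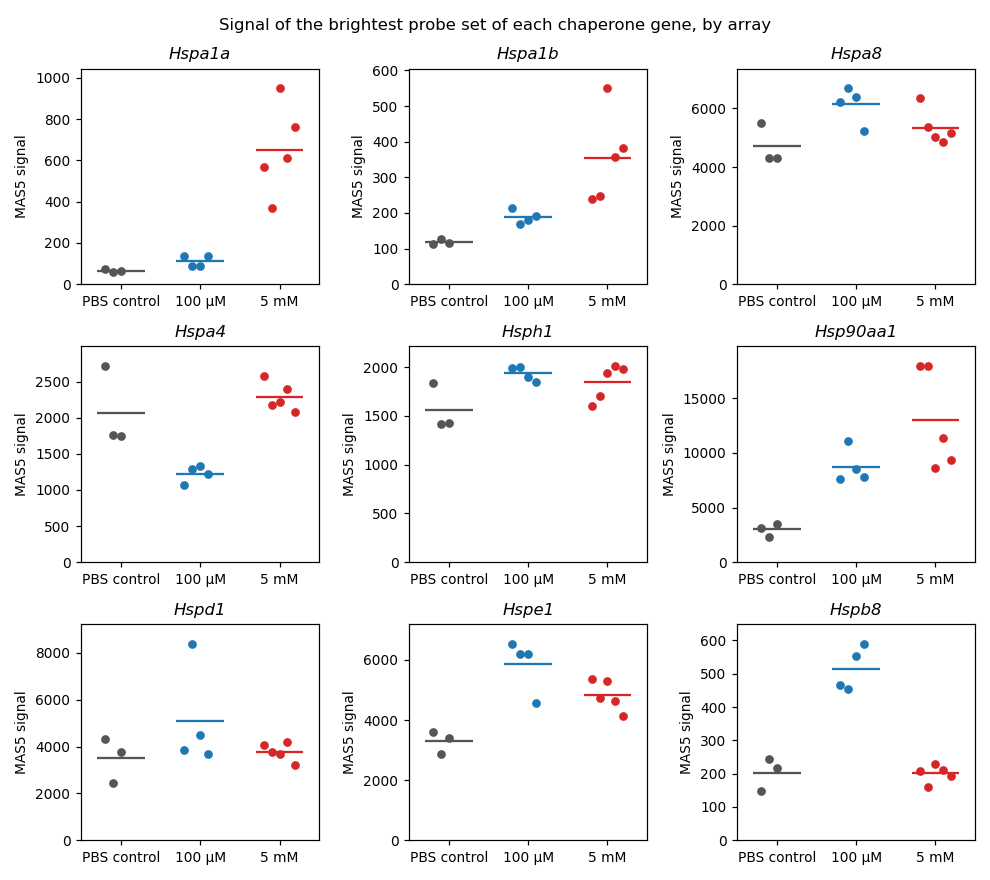
MAS5 signal (linear axis from 0, own scale per panel) of the brightest probe set of each of the 9 chaperone genes; each point is 1 array, ordered by replicate number, and the line is the group mean. Hspa1a and Hspa1b are highest on the 5 mM arrays, Hspb8 is highest on the 100 µM arrays, and Hsp90aa1 is above all control arrays on all treated arrays.

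Hsp90aa1, the inducible cytosolic HSP90 gene, read higher after both doses. Its bright probe set gave 3170, 2338 and 3475 in the controls, 7645, 11062, 8536 and 7750 on the low-dose arrays, and 17908, 17933, 8633, 11322 and 9383 at the high dose. All treated arrays were above all control arrays, while the doses overlapped. The value was 2.92-fold higher at the low dose (log2 change 1.55 ± 0.25, limma adjusted p = 4.5e-04) and 4.19-fold higher at the high dose (2.07 ± 0.24, limma adjusted p = 2.8e-05). Between the doses the log2 value was 0.52 ± 0.22 (95% interval 0.06 to 0.98) and did not pass (limma adjusted p = 0.0867); with high-dose replicate 3 removed it was 0.65 with an adjusted p of 0.0361. The dim probe set of this gene read 3.92 to 30.9 over all 12 arrays, close to the offset, and had a log2 value of -0.01 at the high dose in a fit without the filter.

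The Hsp90aa1 values lie where the groups differ in general, as do those of Hspa8, Hspe1 and the bright probe set of Hspd1. Of the 420 tested probe sets with a mean signal over 2000, 32.4% were higher after the high dose and 26.9% after the low dose, against 5.68% and 12.8% of all tested probe sets. The 5 genes whose log2 values followed Hsp90aa1 most closely over the 12 arrays were Trim28 and Ybx1 (Pearson r = 0.980 each), Tpt1 (0.979), Rps24 (0.977) and Rps18 (0.976), all read by probe sets whose control mean was between 4578 and 7410. With scalings that act on the whole range of signal the high-dose change of Hsp90aa1 was 1.60 (quantile) and 1.65 (cyclic loess), and its call held; what the bright end adds to the fold was not tested.

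The high-dose arrays did not all read alike for these genes. Replicates 1 and 2 had the highest Hsp90aa1 signals (17908 and 17933, against 8633 to 11322 on the other high-dose arrays), the lowest Hspa1a signals (568 and 370, against 611 to 950) and the lowest Hspa1b signals (238 and 246, against 358 to 550). The same arrays had the brightest top probe sets, at 34106 and 34685, against 19733 to 24340 on replicates 3 to 5. Without these arrays (an alternative added once the data had been seen) the log2 change against the controls was 3.34 for Hspa1a, 1.74 for Hspa1b and 1.71 for Hsp90aa1, and each still passed.

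**Figure D2:**
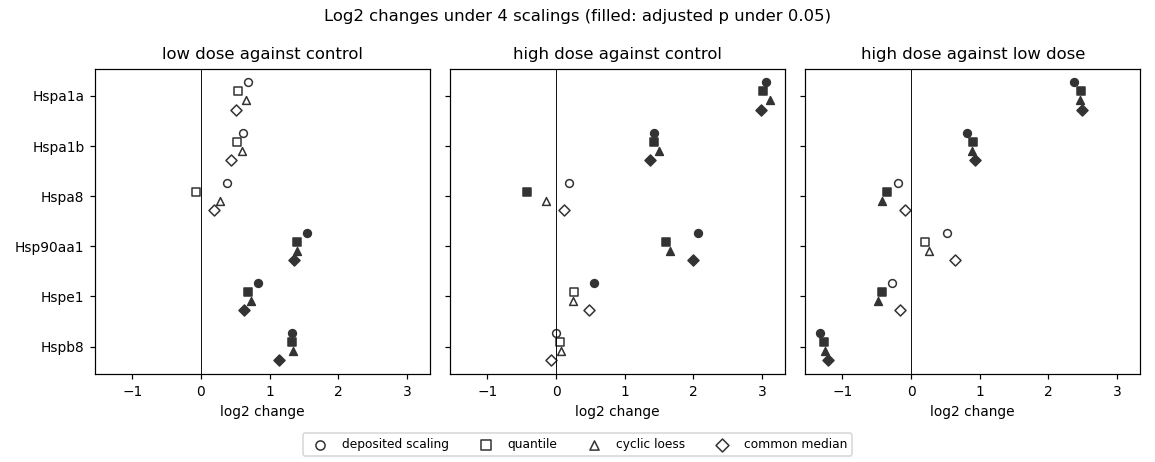
Log2 changes (x axis) of 6 chaperone probe sets in the 3 comparisons under the deposited scaling, quantile normalization, cyclic loess and scaling to a common median; filled symbols have an adjusted p under 0.05. Hsp90aa1 after the high dose ranges from 1.60 to 2.07, and Hspa8 crosses 0.

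Hspb8, the small heat shock protein gene, rose after the low dose and was not above the controls at the high dose. Its bright probe set read 149, 243 and 216 in the controls, 465, 453, 554 and 589 on the low-dose arrays, and 209, 161, 229, 212 and 193 at the high dose. The low-dose arrays stood above all others, while control and high-dose arrays overlapped. The low dose gave a log2 change of 1.32 ± 0.18, 2.50-fold over the controls (limma adjusted p = 1.2e-04), and the high dose was 2.49-fold below the low dose (log2 change -1.32 ± 0.15, limma adjusted p = 1.3e-05). The high-dose value against the controls had a 95% interval from -0.35 to 0.36. Of the 22 tested primitive endoderm markers, 7 were higher and 2 lower after the low dose, as given above. Of single markers, Gata6 was above all controls on the low-dose arrays, while Sox17 overlapped them. At the high dose both markers were below all controls. The part of this lineage in the Hspb8 result was not tested. A dim second probe set of Hspb8 read 1.64 to 23.7 and was not tested.

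The 5 genes whose pattern was most like that of Hspb8 over the 12 arrays were Pdrg1 (Pearson r = 0.981), Rell1 (0.961), the antiproliferative gene Btg1 (0.961), the ubiquitin ligase adaptor gene Fbxw7 (0.956) and Nodal (0.950), a ligand of the TGF-beta family. Btg1 had a mean of 234 in the controls, 846 on low-dose arrays and 237 at the high dose, and Nodal 396, 827 and 333. For Hspa1b the closest were Saysd1 (0.908), Lamp2, a lysosomal membrane protein gene (0.885), Hnrnpul2 (0.875), Anxa6 (0.874) and Hoxd10 (0.874). These r values were ranked over 6405 genes and are descriptions, since the arrays share their groups.

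Among the partners of the inducible chaperones, Bag3 fell after the high dose. It read 192 ± 16.7 (SD, n = 3) in the controls, 204 ± 28.1 (n = 4) on low-dose arrays and 111 ± 14.7 (n = 5) at the high dose, 1.67-fold below the controls (limma adjusted p = 0.00721). Dnajb1, which encodes the main inducible J-domain partner of HSP70, was 372 ± 40.2 in the controls, 620 ± 36.2 on low-dose arrays and 387 ± 35.3 at the high dose, 1.65-fold higher at the low dose (limma adjusted p = 8.9e-04) and 1.59-fold lower at the high than at the low dose (limma adjusted p = 3.2e-04). Both are among 28 tested HSP70 co-chaperones, and some of these values were chosen after being seen. After the high dose 2 of the 28 were higher, 2 were lower and 24 did not pass. Of all genes 5.36% were higher and 6.84% lower there.

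The mitochondrial chaperonin genes, which share a promoter region, did not give the same calls. Hspe1 read 3618, 2885 and 3394 in the controls, 6531, 6213, 6189 and 4571 on the low-dose arrays, and 5376, 4740, 5286, 4640 and 4120 at the high dose. All treated arrays were above all controls, and the doses overlapped. The low dose was 1.77-fold higher (log2 change 0.82 ± 0.15, limma adjusted p = 0.00107). The high dose was 1.46-fold higher (0.55 ± 0.14, limma adjusted p = 0.0198), but its adjusted p was 0.106 after quantile normalization, 0.176 after cyclic loess, 0.0986 after median scaling, 0.108 without control replicate 2, 0.0534 without control replicate 3 and 0.0735 without high-dose replicates 1 and 2. Between the doses the value was -0.27 (limma adjusted p = 0.129), and it passed after quantile normalization (-0.42), after cyclic loess (-0.49) and without low-dose replicate 4 (-0.39).

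Hspd1, the partner of Hspe1 in the chaperonin, read 4301, 2461 and 3785 in the controls, 3852, 8377, 4491 and 3693 on the low-dose arrays, and 4056, 3780, 3690, 4209 and 3193 at the high dose. Low-dose replicate 2 stood apart, and all groups overlapped. The log2 value was 0.49 ± 0.24 at the low dose (95% interval -0.02 to 1.00, limma adjusted p = 0.157) and 0.14 ± 0.23 at the high dose (-0.35 to 0.63, limma adjusted p = 0.750). A dim probe set of Hspd1 gave 0.59 and 0.44 and did not pass in either comparison (limma adjusted p = 0.102 and 0.260). Its low-dose arrays read 80.2 to 155 and its controls 54.9 to 73.6. Between the doses the bright probe set gave -0.35 (limma adjusted p = 0.242), and it passed after quantile normalization (-0.48, adjusted p = 0.0369) and cyclic loess (-0.55, adjusted p = 0.0350). Whether Hspd1 and Hspe1 differ from each other in response was not tested.

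Hsph1, which encodes the inducible HSP110, did not pass in any comparison under the deposited scaling with all arrays weighted equally. It read 1835, 1418 and 1432 in the controls, 1991, 2004, 1899 and 1852 on the low-dose arrays, and 1605, 1702, 1945, 2012 and 1978 at the high dose. The low-dose arrays lay just above all controls, and the high-dose arrays overlapped both groups. Its log2 value was 0.32 at the low dose (95% interval 0.05 to 0.58, limma adjusted p = 0.0765) and 0.25 at the high dose (-0.01 to 0.50, limma adjusted p = 0.203). The low-dose value passed after quantile normalization (adjusted p = 0.0270), with array quality weights (0.0160) and without control replicate 1 (0.0233), and the high-dose value with array quality weights (0.0371). After median scaling the low-dose value had a limma adjusted p of 0.606.

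Hspa4, the other HSP110 gene, is read by 5 probe sets, and these disagreed. Set 1, the brightest, read 2715, 1758 and 1743 in the controls, 1062, 1294, 1334 and 1215 on the low-dose arrays, and 2574, 2179, 2222, 2398 and 2073 at the high dose. It was lowest on the low-dose arrays without overlap, with a log2 change of -0.73 ± 0.15 against the controls (limma adjusted p = 0.00320) and 0.90 ± 0.13 from low to high dose (limma adjusted p = 1.3e-04).

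Set 2 ran in the opposite direction between the doses. It read 1291, 2030 and 1910 in the controls, 1930, 2642, 2712 and 1876 on the low-dose arrays, and 1318, 1209, 1587, 1357 and 1477 at the high dose. The high dose was below the low dose without overlap (log2 change -0.70 ± 0.15, limma adjusted p = 0.00276), and neither dose passed against the controls (limma adjusted p = 0.109 and 0.262), except the high dose with array quality weights (-0.42, adjusted p = 0.0441).

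Set 3, at 1225 to 1685 in the controls, 916 to 1234 on low-dose arrays and 1251 to 1515 at the high dose, fell at the low dose by 0.43 on the log2 scale (limma adjusted p = 0.0283). Dropping 1 array could end that call: the adjusted p was 0.117 and 0.0819 with control replicate 1 or 2 removed and 0.0829 and 0.0579 with replicate 2 or 3 of the low dose removed. It was also above the threshold with no variance trend (0.0562) and in a fit of the compared groups alone (0.0605). Between the doses set 3 gave 0.32 (limma adjusted p = 0.0578) and passed in 7 alternatives, with adjusted p from 0.0225 (median scaling) to 0.0480 (without control replicate 3). Sets 4 and 5, with control means of 313 and 94.7, passed in no comparison. With brighter probe sets in opposite directions, no direction can be given for Hspa4 as a gene.

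**Figure D3:**
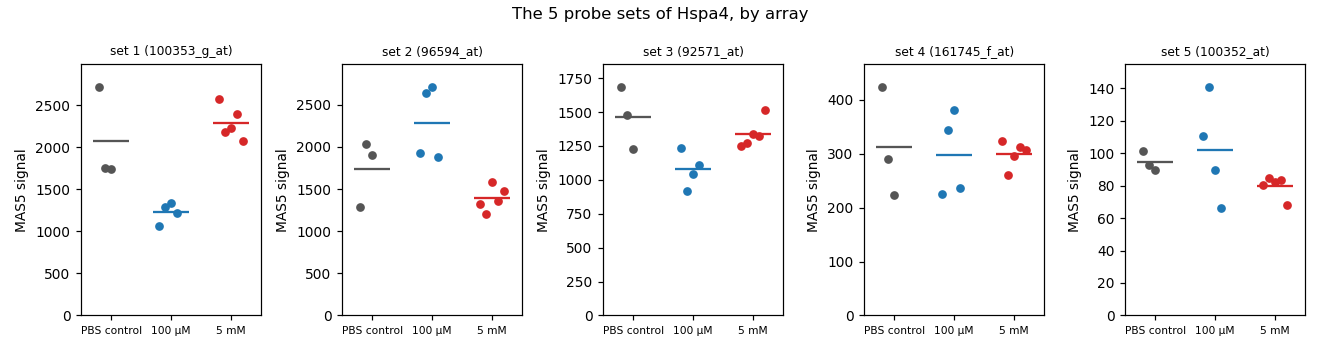
MAS5 signal (linear axis from 0, own scale per panel) of the 5 probe sets assigned to Hspa4, from the brightest to the dimmest; each point is 1 array and the line is the group mean. Set 1 is lowest at 100 µM and set 2 is highest there.

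Counted together, 4 of the 14 tested chaperone probe sets were higher after the high dose than in the controls (Hspa1a, Hspa1b, Hsp90aa1 and Hspe1), none was lower and 10 did not pass, where 11.7% of all tested probe sets passed (5.68% higher and 6.03% lower). Their median log2 change was 0.18, against 0.01 over all tested probe sets and 0.25 over the 420 with a mean signal over 2000. Hsp90aa1 and Hspe1 lie in that bright range, where 32.4% were higher after the high dose. After the low dose 3 were higher (Hsp90aa1, Hspe1 and Hspb8), 2 were lower (both of Hspa4) and 9 did not pass, against 24.0% passing over all. The median was 0.44, against 0.08 over all and 0.09 over the bright probe sets. Between the doses 3 were higher at the high dose (Hspa1a, Hspa1b and 1 of Hspa4), 2 were lower (Hspb8 and 1 of Hspa4) and 9 did not pass, against 27.4% over all. The median was -0.11, against -0.05 over all and 0.23 over the bright probe sets. The number passing was 8 between the doses after quantile normalization or cyclic loess, and 8 after the low dose with array quality weights or without high-dose replicates 1 and 2. Of all calls, 48.5% were higher after the high dose, 53.2% after the low dose and 46.7% between the doses, and with scaling to a common median these shares were 33.6%, 27.7% and 61.8%. Both comparisons with the controls use the same 3 control arrays.

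**Figure D4:**
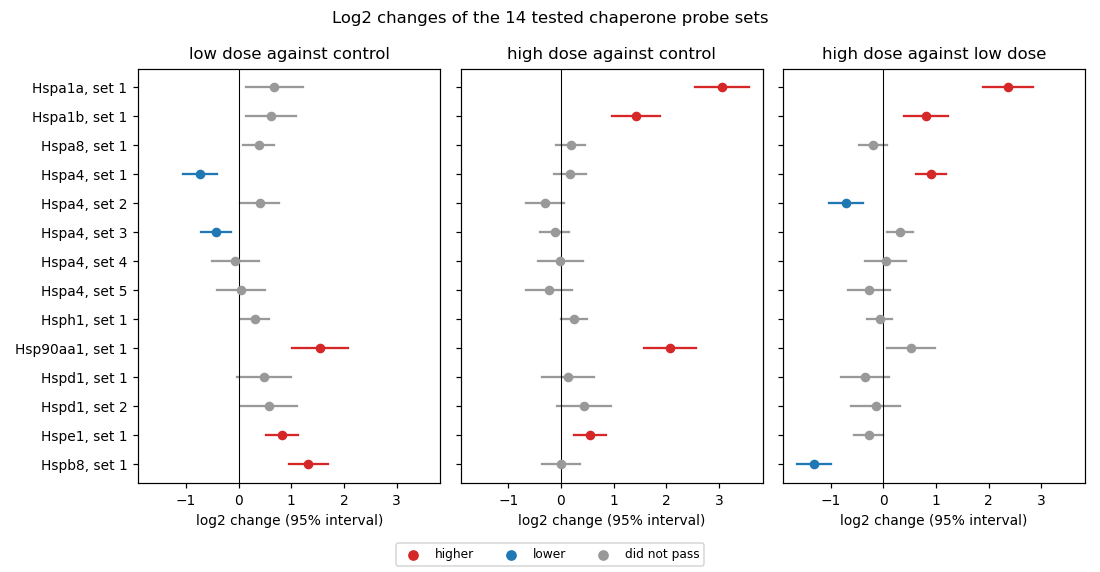
Log2 change (points) and 95% interval (lines) of the 14 tested chaperone probe sets in the 3 comparisons; colours give the call at an adjusted p of 0.05, and sets are numbered from the brightest within a gene. Hspa1a reaches 3.05 after the high dose, and Hspb8 is at 1.32 after the low dose and at -1.32 between the doses.

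Of the genes that work with HSP70 some were higher and some lower in each comparison, after the high dose near the shares over all genes. Of 36 listed co-chaperones 28 were tested, and after the low dose 7 were higher, 5 lower and 16 did not pass, where 11.9% of all 6414 genes were higher and 12.7% lower. With scaling to a common median the counts were 4 higher and 7 lower. The largest were Dnajb9, a J-domain protein of the endoplasmic reticulum, at 2.85-fold higher (limma adjusted p = 3.6e-04), Dnajc9, a nuclear J-domain protein that binds histones, with a log2 change of 1.00, Dnajb2 at 1.88-fold lower and Dnajb1. After the high dose 2 were higher (Dnajb3, from a control mean of 10.9, and Dnajb6), 2 lower (Dnajb11 and Bag3) and 24 did not pass, where 5.36% of genes were higher and 6.84% lower. Dnajb11, of the endoplasmic reticulum, was 1.83-fold lower, while the rises of Dnajb3 (2.06-fold) and Dnajb6 (1.44-fold) were lost under cyclic loess and median scaling, and after quantile normalization Dnajb6 alone kept its call. Between the doses 6 were higher and 10 lower at the high dose, where 13.8% and 15.2% of genes were, with 7 and 6 under median scaling. Dnajb9 was 2.20-fold, Dnajc3 2.17-fold and Bag3 1.76-fold lower, and the mitochondrial exchange factor gene Grpel2 was 1.59-fold higher.

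Of 18 listed HSP90 co-chaperones 12 were tested, and after the high dose 1 was higher (Chordc1, 1.41-fold, with no call under median scaling) and 11 did not pass, where 5.36% of all genes were higher. After the low dose 2 were higher and 2 lower, near the 11.9% and 12.7% of all genes: Ttc4 (1.59-fold) and Ppid (1.37-fold) were higher, and Fkbp5, an immunophilin that binds steroid receptor complexes, was 2.11-fold lower (limma adjusted p = 5.6e-05), as was Cdc37, which brings kinases to HSP90, at 1.58-fold. At the high dose 4 were above the low dose, among them Fkbp5 (1.83-fold), Fkbp8 (1.56-fold) and Cdc37 (1.51-fold), and Ppid was 1.51-fold below it, where 13.8% of genes were higher and 15.2% lower. With scaling to a common median no member of this list was higher after the low dose and 4 were lower.

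The other heat shock proteins gave few calls against the controls. Of 14 tested, 1 was higher and 2 lower after the high dose, where 5.36% of all genes were higher and 6.84% lower: the mitochondrial HSP70 gene Hspa9 at 1.43-fold, a call absent under all 3 other scalings, and Hspa14 and the protease gene Clpp at 1.47-fold and 1.37-fold lower. After the low dose the counts were also 1 higher and 2 lower, near the 11.9% and 12.7% of all genes: Hspa5, the HSP70 of the endoplasmic reticulum, was 1.65-fold higher and Clpp and Lonp1, of the mitochondrial protease system, were 2.15-fold and 1.54-fold lower. Between the doses Hspa5 was 1.87-fold lower at the high dose, and Hspa9 (1.77-fold), Clpp (1.56-fold) and Lonp1 (1.24-fold) were higher, where 15.2% of genes were lower and 13.8% higher. Of the 7 listed heat shock factors and regulators only Hsbp1, whose product binds the heat shock factor 1 trimer, was tested. Its mean was 225 in the controls, 338 on low-dose arrays and 221 at the high dose, 1.52-fold higher at the low dose (limma adjusted p = 0.0243), a call lost with median scaling, and 1.51-fold lower at the high than at the low dose (limma adjusted p = 0.0110).

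Subunits of the cytosolic chaperonin and of prefoldin, which fold actin and tubulin, gave 3 calls after the low dose, where 12.7% of all genes were lower and 11.9% higher. Of 13 tested, 3 were lower (Pfdn6 1.80-fold, Cct7 1.69-fold and Pfdn2 1.43-fold), none was higher and 10 did not pass, with a median log2 change of -0.30 against 0.04 over all genes; 5 were lower after quantile normalization or cyclic loess and 6 after median scaling. After the high dose Pfdn2 (1.41-fold) and Vbp1 (1.39-fold) were higher, where 5.36% of genes were, and of these Pfdn2 kept its call after quantile normalization and neither did after cyclic loess or median scaling. Between the doses 6 were higher at the high dose and 1 lower, where 13.8% and 15.2% of genes were, led by Pfdn6 (2.09-fold) and Pfdn2 (2.02-fold), with Cct2 1.74-fold lower.

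The list of other heat-inducible genes, chosen with earlier results of these data known, held more higher than lower calls after the low dose. Of 9 tested, 6 were higher and none lower, where 11.9% of all genes were higher and 12.7% lower, with Fos 8.80-fold, Mt2 4.62-fold, Mt1 4.10-fold and Atf3 3.69-fold higher and a median log2 change of 1.11. After the high dose 5 were higher and 1 lower, where 5.36% and 6.84% of genes were: Fos was 5.71-fold, Mt2 4.39-fold and Mt1 2.08-fold higher, and Serpinh1, the collagen chaperone gene, was 4.65-fold lower. Serpinh1 is also on the list of primitive endoderm markers given above. Atf3 did not pass after the high dose, and between the doses it was 2.98-fold lower at the high dose. There 1 of the 9 was higher and 3 were lower, where 13.8% and 15.2% of genes were, with Serpinh1 6.06-fold and Mt1 1.97-fold lower and Hmox1, the heme oxygenase gene, 1.49-fold higher.

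**Figure D5:**
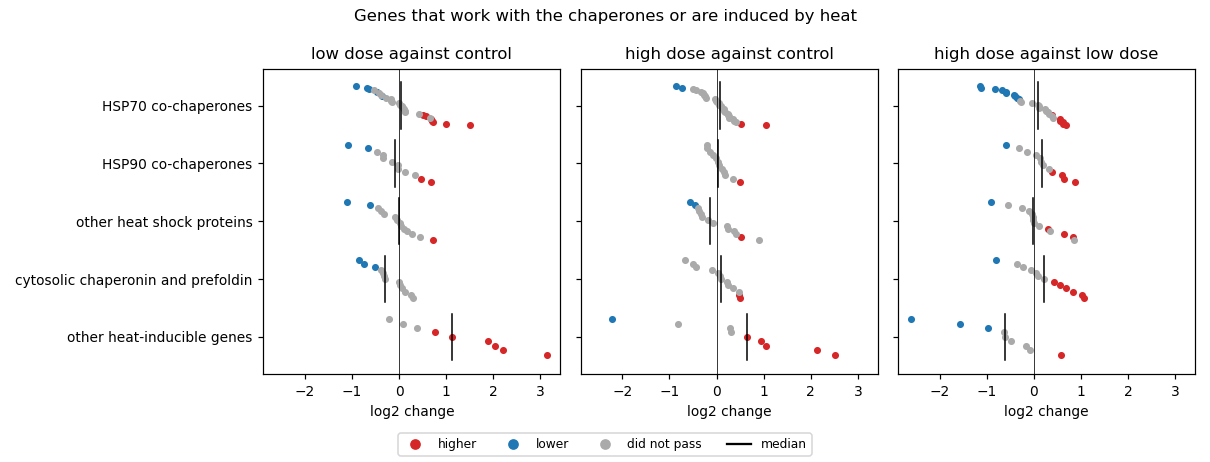
Log2 change of each tested gene on 5 lists of co-chaperones, chaperones and heat-inducible genes in the 3 comparisons (1 point per gene, coloured by call; the black line is the list median). The median of the other heat-inducible genes is 1.11 after the low dose, and the cytosolic chaperonin and prefoldin list is at -0.30 there.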

How the data were processed

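Each of the 12 samples was hybridised to 1 Affymetrix MG_U74Av2 array. Per the submitters' processing notes, the deposited values are MAS5 intensities (signals), with a version and scaling target not given in the sources used here. The deposited scaling was kept: mean signals after trimming 2% at each end differed by 0.0195% between arrays. Each signal plus 10.1 was log2-transformed, 10.1 being the 20th percentile of all values. The 66 control probe sets and those with a mean log2 value under the 30th percentile were left out, and 8695 were tested in limma 3.58.1 (R 4.3.3), with a mean per group over all 12 arrays, eBayes with a trend, and two-sided tests.

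Gene symbols came from the platform annotation, updated by Entrez number through RefSeq (10817 of 10833 probe sets with 1 symbol matched); 396 had several symbols and 1193 were not listed. The members, the lists and the tests were chosen with earlier results of these data known. The rule for named genes was every probe set of the members, up to 4 called genes per list and comparison with the largest changes (the 2 largest where none passed), and the 5 genes most correlated with each of Hspa1b, Hsp90aa1 and Hspb8. Bag3, Dnajb1 and Atf3 are also given in comparisons where that rule does not name them, chosen after their values were seen. Lists used the brightest tested probe set per gene. The fit was tested on simulated data with known changes. Of log2 changes of 1 it recovered 68.4% for high dose against control, 69.4% for low dose against control and 77.9% between the doses. Of log2 changes of 2 it recovered 96.6%, 94.4% and 98.9%. Smaller changes were not simulated. Replicate numbers do not pair the arrays by the labels or by the data. Alternatives changed the scaling, offset, filter, variance trend, array weights, groups fitted, replicate block and arrays included.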

Additional observations from a re-analysis of the deposited data

Results flagged for a closer look

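Among the 28 groups of 4 or 5 arrays checked over the tested chaperone probe sets, 2 held an array far from the others of its group, and chance alone gives about 1 in 20. Hspe1 read 4571 on low-dose replicate 4, against 6189 to 6531 on the other low-dose arrays; without that array the low-dose change was 0.94 on the log2 scale, against 0.82 with it. The dimmest probe set of Hspa4 read 68.0 on high-dose replicate 5, against 80.4 to 84.7 on the other high-dose arrays, and passed in no comparison with or without it.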

How the results depend on the processing

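The 14 chaperone probe sets in 3 comparisons gave 42 changes, each repeated under 24 alternatives. Of these 1008 repeats 927 kept their direction and side of the threshold, 12 lost a call, 36 gained one and 33 changed sign. Some alternatives could not change a direction, such as leaving out an array of the group not compared or removing the variance trend. The count is therefore not a measure of how stable the directions are. The calls of Hspa1a, Hspa1b, Hsp90aa1 and Hspb8 given above were kept under the other scalings.

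The number of all probe sets called for high dose against control was 1018, and 1655 with array quality weights, 597 with the replicate block and 605 without high-dose replicates 1 and 2, an alternative added on seeing the data. Leaving out 1 array at a time gave 490 to 1012 (490 without control replicate 2, 599 without control replicate 3), 1425 to 2141 for low dose against control and 1994 to 2553 between the doses. Called chaperone probe sets ranged from 3 to 4, 4 to 7 and 5 to 6 in the same order. Between the doses they went from 5 to 8 after quantile normalization and cyclic loess, and for low dose against control from 5 to 8 with array weights and without high-dose replicates 1 and 2. Scaling to a common median moved the share of calls that were higher from 48.5% to 33.6% (high dose against control), from 53.2% to 27.7% (low dose against control) and from 46.7% to 61.8% (between the doses), and the median change of all probe sets after the low dose from 0.08 to -0.09.

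No value that changed sign had passed under the deposited scaling with all arrays weighted equally. After the change, Hspa8 passed as lower for high dose against control with quantile normalization (-0.42, limma adjusted p = 0.0362). The values that changed sign for high dose against control were Hspa8 (-0.42 quantile, -0.15 cyclic loess), Hspd1 set 1 (-0.10 and -0.13), Hspa4 set 4 (0.0639 and 0.0638, with 0.16 with array weights, 0.0136 with the replicate block, 0.0139 without high-dose replicates 1 and 2) and Hspb8 (-0.0663 median scaling, -0.0925 array weights, -0.0308 replicate block). For low dose against control they were Hspa8 (-0.0702 quantile), Hspa4 set 5 (-0.0828 quantile, -0.0748 cyclic loess, -0.12 median scaling) and Hspa4 set 4 (0.12 array weights). Between the doses Hsph1 gave 0.0429 with median scaling and 0.0310 without high-dose replicates 1 and 2. With 1 array left out, Hspa4 set 4 ranged from -0.22 to 0.22, from -0.27 to 0.18 and from -0.0678 to 0.175 in the 3 comparisons, Hspb8 from -0.19 to 0.14 and Hspd1 set 1 from -0.10 to 0.30 (high dose against control), Hspa4 set 5 from -0.11 to 0.22 (low dose against control) and Hspd1 set 2 from -0.26 to 0.0267 (between the doses). Sets are numbered from the brightest within a gene. The cause was not tested.

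Replicate numbers did not pair the arrays: deviations of the 10 same-numbered pairs correlated from -0.178 to 0.148, and 2 were over 0.1. With the replicate block 1852 and 2055 probe sets were called for low dose against control and between the doses, and Hspa8 passed after the low dose (0.44, adjusted p = 0.0403).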
